A study of Homo sapiens with 6 samples.

Results

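The cereblon ubiquitin ligase was examined through the mRNAs of its 6 subunits, CRBN, DDB1, CUL4A, CUL4B, RBX1 and DDA1. They were listed by name from the 57905 gene identifiers of the count data, with earlier results of these data known. Each symbol matched 1 identifier. The libraries were made from total RNA of NCI-H929 (H929), an established multiple myeloma cell line, that was incubated in a tube either with or without the recombinant cytoplasmic domain of human IRE1, the endoribonuclease of the unfolded protein response. Each control reaction (n = 3) and each IRE1-treated reaction (n = 3) held 5 µg of RNA and ran for 1 h at 37 °C before 5 min at 95 °C, and the treated ones also held 2 µg of IRE1 (amino acids 467 to 977). Poly(A)-containing RNA was purified after the reaction, so a cleaved mRNA keeps only the fragment next to its poly(A) tail, and the comparison asked which mRNAs were depleted by IRE1. No living cell was treated. In a count per gene, fewer molecules of an mRNA and shorter fragments of the same number of molecules cannot be told apart. All RNA came from 1 cell line, and p-values measure the spread between these 6 libraries, which the submitters call biological replicates.

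Cereblon, encoded by CRBN, is the protein that thalidomide, lenalidomide and pomalidomide bind. It is the substrate receptor of a cullin-RING ligase: CUL4A or CUL4B is the elongated scaffold, DDB1 is the adaptor that holds the receptor at one end of it, and RBX1 is the RING protein at the other end that recruits the ubiquitin-loaded E2 enzyme. DDA1 is a small protein that binds DDB1. In myeloma cells the drugs turn cereblon towards the transcription factors IKZF1 and IKZF3, whose degradation is followed by a fall of IRF4 and MYC, and loss of cereblon is a known route to drug resistance.

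Each library held between 19615715 and 25678499 counts assigned to genes. The scaling factors of edgeR (TMM) lay between 1.02 and 1.03 in the controls and between 0.947 and 0.996 in the treated libraries. All 11 markers of plasma cells and of H929 exceeded 100 normalized counts, with a sum of 276785 to 282177 in the controls and 275017 to 290341 after IRE1. Of 12 markers of other blood cells, MPO, GATA1 and KLRD1 were at 0 in every library and only CD3E exceeded 100, with a control mean of 919. The sum of these 12 was 963 to 995 in the controls and 1010 to 1233 after IRE1, and its part in the results was not tested.

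Of the 6 subunit mRNAs, CUL4B fell after incubation with IRE1, RBX1 and DDA1 rose, and CRBN, DDB1 and CUL4A did not pass the test. Here and below, fell and rose describe scaled counts, that is, a level relative to the other genes of the library. The number of molecules was not measured, so a higher value does not show that an mRNA became more abundant. The treated mean was 84.1% of the control mean for CUL4B, 130% for RBX1 and 113% for DDA1. These are 3 of 6 members called by edgeR's quasi-likelihood test at a Benjamini-Hochberg adjusted p under 0.05, beside 22.7% of the 14398 genes tested. In detail 1 of 6 was called lower, where 12.4% of all genes were, and 2 of 6 higher, where 10.3% of all genes were. The median log2 fold change was 0.0033 over the 6 members and 0.0045 over all genes. Removing a trend with transcript length and GC content left 1 of the 6 called (DDA1), and scaling by library size alone left 4 called, 3 of them lower.

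The sequence that IRE1 is known to cut in XBP1 mRNA is the motif CUGCAG held in the loop of a small hairpin, and the members' copies of it are shown because the values below concern a reaction with that enzyme. The motif was searched on the sense strand of 1 canonical transcript per gene (GENCODE release 44 on GRCh37), and each copy was folded with RNAfold together with 15 bases on either side. A copy was called partly looped when its first G lay unpaired in the loop (5 to 11 bases) of a hairpin with a stem of 3 or more base pairs, whether or not its other bases were paired. The 6 transcripts held 22 copies, of which 14 lay in coding sequence, 7 in 3′ UTRs and 1 in a 5′ UTR, and 2 were partly looped. No copy had all 6 bases unpaired in such a loop. They are given 5′ to 3′ with 12 bases on either side, as DNA letters of the transcript's strand, with the motif in capitals. The partly looped copies are in CUL4B and in DDB1:
CUL4B, 5′ UTR: gctgagtcgctcCTGCAGaaagggggggag
DDB1, coding sequence: gcccaccagtttCTGCAGaatgaatatgcc
The CUL4B copy starts at base 19 of the transcript in exon 1 of 20 (chrX:119694794-119694799, minus strand, GRCh37) and its predicted loop has 7 bases, 4 of them from the motif, the remaining bases of which are paired. Only 18 bases lie before it. The DDB1 copy starts at base 2559 in exon 20 of 27 (chr11:61077407-61077412, minus strand), with a predicted loop of 8 bases that holds 5 of the motif, and with 60.3% of the transcript before it.

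The paralogues CUL4A and CUL4B share a copy at the same place of their coding sequence. Both lie in exon 18 of 20 and start 398 bases before the end of the stop codon, and 23 of the 30 bases shown are identical:
CUL4A, coding sequence: ttgcgcagaacgCTGCAGtccctggcctgt
CUL4B, coding sequence: ttaaggagaacaCTGCAGtcattagcctgt
The positions are chr13:113909290-113909295 on the plus strand for CUL4A and chrX:119666421-119666426 on the minus strand for CUL4B. RNAfold put neither in a loop that met the rule. For comparison with them, a coding copy of the receptor and the only copy of the RING protein, neither partly looped, read as follows:
CRBN, coding sequence: cttcaaccatgtCTGCAGttcaattagaat
RBX1, coding sequence: taactgtgccatCTGCAGgaaccacattat
The CRBN copy is in exon 5 of 11 (chr3:3209416-3209421, minus strand) and the RBX1 copy in exon 2 of 5 (chr22:41349612-41349617, plus strand).

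Copies of the motif were common in all mRNAs. Of 12225 canonical transcripts of tested protein-coding genes, 85.3% held at least 1 copy, 35.4% held 1 that was partly looped by the same rule, and 8.86% held 1 with the whole motif in the loop. CUL4A held 9 copies, DDA1 5, DDB1 3, CUL4B 2, CRBN 2 and RBX1 1. Among transcripts within 10% of the length of CUL4B, 95.6% held a copy and 46.7% a partly looped copy, and for DDB1 the shares were 91.8% and 40.8%. All 5 copies of DDA1 lay in its 3′ UTR. The member with most copies, CUL4A, had none partly looped, and of the members with a partly looped copy CUL4B fell and DDB1 did not pass the test. A match describes the letters only and was not read as a cleavage site.

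The levels of the subunits in the untreated RNA were compared per transcript length, as CPM per kilobase of the canonical transcript. That is, counts were scaled to the effective library size (library size times its TMM factor) and divided by length. DDB1 stood far above the others at 77.6 ± 1.57 (SD, n = 3), at the 92.5th percentile of the protein-coding genes tested. RBX1 followed at 17.4 ± 0.879, DDA1 at 15.2 ± 0.803, CRBN at 10.4 ± 0.101, CUL4B at 6.32 ± 0.277 and CUL4A at 3.94 ± 0.0638 (SD, n = 3 each). The lowest, CUL4A, was at the 39th percentile, and the median of these genes was 6.49. The order was the same in each of the 6 libraries, and the control ranges of neighbours did not overlap, the closest being RBX1 (16.7 to 18.4) and DDA1 (14.5 to 16.1).

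On this per-length scale the level of the adaptor DDB1, which serves many receptors, was 7.30 to 8.03 times the sum of the scaffolds CUL4A and CUL4B in the control libraries. The level of the receptor CRBN was 0.992 to 1.07 times the scaffold sum, and 13.3 to 13.6 per 100 of DDB1. CUL4A made up 37.8 to 39.3% of the scaffold sum. After IRE1 the level of CRBN was 1.17 to 1.38 times the scaffold sum and 15.1 to 16.7 per 100 of DDB1, both above every control library. The order depended on the length used: with the merged length of all annotated exons DDA1 (13.4) stood above RBX1 (6.59), and CUL4A (2.94) above CRBN (2.83). With the longest annotated transcript of each gene DDA1 (15.2) again stood above RBX1 (10.9). DDB1 stayed the highest and a cullin the lowest under each of these lengths, but the order of the scaffolds was reversed. CUL4A was at 2.94 and CUL4B at 1.11 with the merged length, and at 3.94 and 1.56 with the longest transcript. The share of CUL4A and the ratios to the scaffold sum given above therefore hold for the canonical length only. The level of CRBN per 100 of DDB1 depended on the length as well. CRBN and DDB1 were at 4.05 and 66.9 with the longest transcript, and at 2.83 and 21.2 with the merged length.

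**Figure D1:**
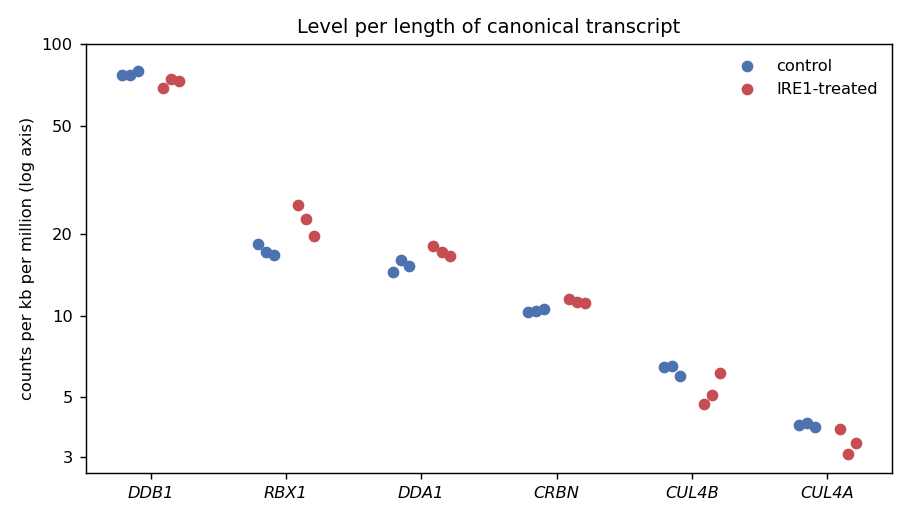
Level of each subunit mRNA in CPM per kilobase of canonical transcript (log axis), with a point for each of the 3 control (blue) and 3 IRE1-treated (red) libraries. DDB1 lies at 76.7 to 79.4 in the controls, far above RBX1 and DDA1, and CUL4A lies lowest at 3.88 to 4.01.

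The scaffolds come first. CUL4B (ENSG00000158290, chrX:119639775-119737929, minus strand, 20 exons, transcript of 5915 bases) is 1 of the 2 cullins that carry cereblon. It had 854, 856 and 792 normalized counts in control libraries 1, 2 and 3 and 622, 670 and 812 in treated libraries 1, 2 and 3. Treated libraries 1 and 2 lay below every control, while treated library 3 lay inside the control range, so the groups overlapped. CUL4B had a log2 fold change of -0.25 (SE 0.084, adjusted p = 0.0460, edgeR's quasi-likelihood test). Without treated replicate 3 the log2 fold change was -0.36 with an adjusted p of 4.83e-04 (edgeR), and leaving out any of the other 5 libraries gave adjusted p-values of 0.0652 to 0.176. With the length and GC trend removed it was -0.049 (adjusted p = 0.683, edgeR). The study picked CUL4B among its candidate substrates from the exon usage in these same libraries, so its lower value is not independent evidence. A count over the whole gene is another measure and does not show single exons. By quantitative PCR after the cleavage reaction, the study reported a significant decrease of the 5′ region in every candidate, CUL4B included. CUL4B was not among the candidates in which the study found a clear stem-loop with the motif around the cleavage site.

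For CUL4B the study's list of PCR primers held a pair, shown because it marks where in the transcript the mRNA was assayed apart from sequencing:
CUL4B forward primer: CTTCAACCTCGTCCTTCTGC
CUL4B reverse primer: GTTGCAGCAGTTGGTGAAGA
They match bases 557 to 576 and 703 to 722 of the transcript (chrX:119694242-119694261 and chrX:119694096-119694115), both in the coding part of exon 1, and enclose 166 bases. The partly looped copy at base 19 lies before this stretch and the copy at base 2614 behind it.

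CUL4A (ENSG00000139842, chr13:113862507-113921422, plus strand, 20 exons, transcript of 5821 bases) is the paralogous scaffold and is nearly as long. Its normalized counts were 511, 520 and 503 in the controls and 494, 402 and 441 after IRE1. All 3 treated values lay below all 3 controls, treated library 1 by the smallest margin. The log2 fold change was -0.20 (SE 0.082) and did not pass the test (adjusted p = 0.0890, edgeR). It passed without treated replicate 1 (-0.28, adjusted p = 0.0121, edgeR) and with scaling by library size alone (-0.28, adjusted p = 0.0232, edgeR). Exons of PCID2 overlap the gene on the opposite strand and a pseudogene of CUL4A exists. The strand setting of the counting is not given in the sources used here, so reads of such a pair may be shared.

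The question whether the paralogues moved by different amounts was put to the ratio of CUL4A to CUL4B within a library, on the per-length scale. The ratio was 0.608, 0.617 and 0.646 in the controls and 0.808, 0.609 and 0.552 after IRE1. The treated values lay on both sides of the controls, and the spread among them was larger than that among the controls. The difference of the mean log2 ratio was 0.055 (two-sided exact permutation test, p = 0.9, where 3 against 3 cannot go below 0.1). It turned to -0.11 without treated replicate 1, in which CUL4B was lowest and CUL4A highest of the treated libraries.

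DDB1 (ENSG00000167986, chr11:61066923-61110068, minus strand, 27 exons, transcript of 4245 bases) is the adaptor. Its normalized counts were 7252, 7253 and 7509 in the controls and 6518, 7030 and 6888 after IRE1. Every treated library lay below every control, the treated mean being 92.8% of the control. Its log2 fold change of -0.11 (SE 0.047) did not pass the test (adjusted p = 0.113, edgeR), and passed under 1 of 14 alternatives, scaling by library size alone (-0.18, adjusted p = 0.0145, edgeR). Exons of TKFC overlap DDB1 on the opposite strand.

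RBX1 (ENSG00000100387, chr22:41347351-41369313, plus strand, 5 exons, transcript of 1169 bases), the RING subunit, showed the largest change among the members. Its normalized counts were 479, 447 and 435 in the controls and 662, 591 and 511 after IRE1. The groups did not overlap. RBX1 rose by 0.37 on the log2 scale (SE 0.090, adjusted p = 0.00855, edgeR), and it passed in all 6 fits that left out 1 library, at 0.28 to 0.47. With the length and GC trend removed it was 0.17 (adjusted p = 0.201, edgeR). The annotation names 2 pseudogenes of RBX1, with which reads could be shared.

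DDA1 (ENSG00000130311, chr19:17420327-17434107, plus strand, 5 exons, transcript of 4043 bases) had 1303, 1448 and 1370 normalized counts in the controls and 1629, 1538 and 1487 after IRE1. All treated values lay above all controls. DDA1 rose by 0.18 on the log2 scale (SE 0.057, adjusted p = 0.0384, edgeR). Of the fits that left out 1 library only that without treated replicate 3 passed (adjusted p = 0.0108, edgeR), the others giving 0.0538 to 0.194, and with scaling by library size alone the log2 fold change was 0.099 (adjusted p = 0.235, edgeR). With the length and GC trend removed it was 0.22 (adjusted p = 0.0131, edgeR). Exons of ANO8 overlap DDA1 on the opposite strand.

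CRBN (ENSG00000113851, chr3:3186312-3221411, minus strand, 11 exons, transcript of 2187 bases), the receptor itself, had 504, 507 and 514 normalized counts in the controls and 559, 548 and 543 after IRE1. The treated values all lay above the controls, by little, and both groups were tight. The log2 fold change was 0.11 (SE 0.067) and did not pass the test (adjusted p = 0.248, edgeR), nor did it in any of the 14 alternatives, where it ranged from 0.038 to 0.13. Exons of TRNT1 overlap CRBN on the opposite strand. Over the members, the groups did not overlap for 2 lower and 3 higher of the 6, against 20% lower and 19.1% higher among all genes tested, and the direction of each member was the same in all 14 alternatives.

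**Figure D2:**
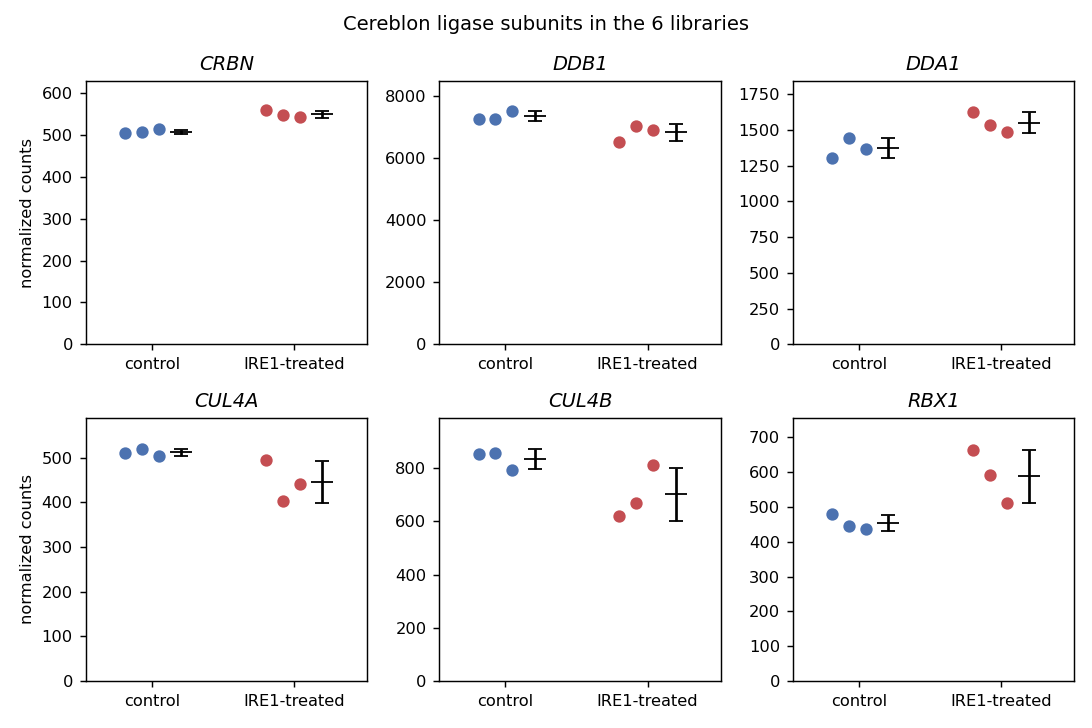
Normalized counts of the 6 subunit mRNAs in each library (one panel per gene, each with its own axis), control (blue) and IRE1-treated (red) side by side, with a point per library in the order of the replicate numbers and a line at the group mean with bars of 1 SD. CUL4B is the panel where a treated library (812) lies among the controls (792 to 856). RBX1 shows the largest relative rise, at 511 to 662 after IRE1 against 435 to 479 in the controls.

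**Figure D3:**
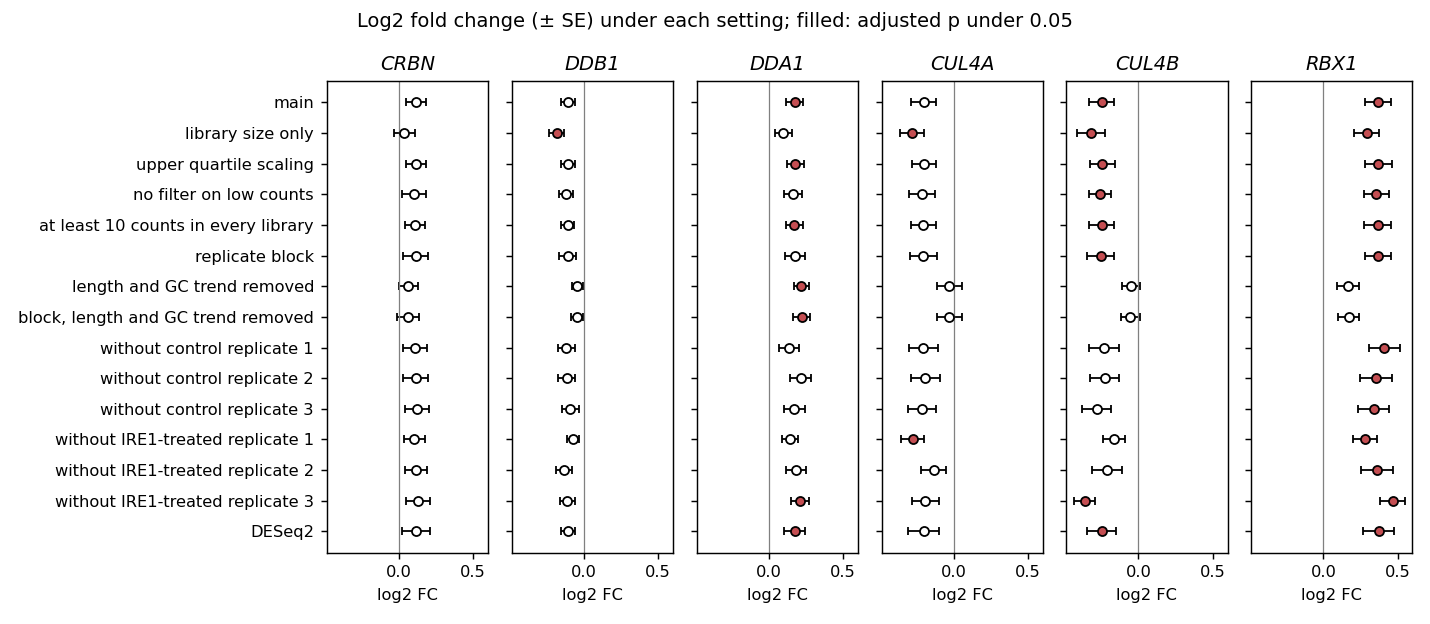
Log2 fold change (IRE1-treated minus control) of each subunit in the edgeR fit and in each of the 14 alternatives, with bars of 1 SE, filled where the adjusted p was under 0.05. CRBN is never filled, RBX1 is filled in 12 of 14 alternatives and CUL4B in 7, and no point crosses 0.

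Each pair of subunits was also compared as a ratio of per-length levels within a library, which needs no scaling between libraries. Of the 15 pairs, the groups did not overlap for CRBN to DDB1, to CUL4A and to CUL4B (higher after IRE1) nor for DDB1, CUL4A and CUL4B to RBX1 and to DDA1 (lower after IRE1). The pairs share members, so they are not separate results, and the same count among other pairs of genes was not taken. The ratio of DDB1 to RBX1 was 4.17, 4.47 and 4.75 in the controls and 2.71, 3.28 and 3.71 after IRE1. Each of these pairs had the smallest p that 3 against 3 allows, 0.1 in the two-sided exact permutation test, and none could pass after adjustment over the 15 pairs (0.167).

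Transcript length moved with the change across all genes, and the sign of 5 of the 6 members was that of the median of genes of like length. Over 12225 protein-coding genes the log2 fold change had a Spearman correlation of -0.64 with transcript length and of 0.25 with GC content; these are descriptions across genes, which share the 6 libraries and are no replicates. By quintiles of length from short to long, the median log2 fold change was 0.18, 0.072, -0.017, -0.12 and -0.23. In the shortest quintile 37.6% of genes were called higher and 0.163% lower, and in the longest 1.68% higher and 41.4% lower.

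RBX1 belonged to the shortest quintile and CRBN to the next. CUL4B was in the longest, and its log2 fold change of -0.25 lay beside the median of -0.23 there. CUL4A (-0.20), DDB1 (-0.11) and DDA1 (0.18) were in quintile 4, where the median was -0.12 and 21.3% of genes were called lower and 2.41% higher. DDA1 was the only member whose sign differed from the median of its quintile, and at 58.9% it had the highest GC content of the 6, the lowest being 38.1% in CUL4B. The part of length in the members' changes was not tested apart from the fit with the trend removed.

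**Figure D4:**
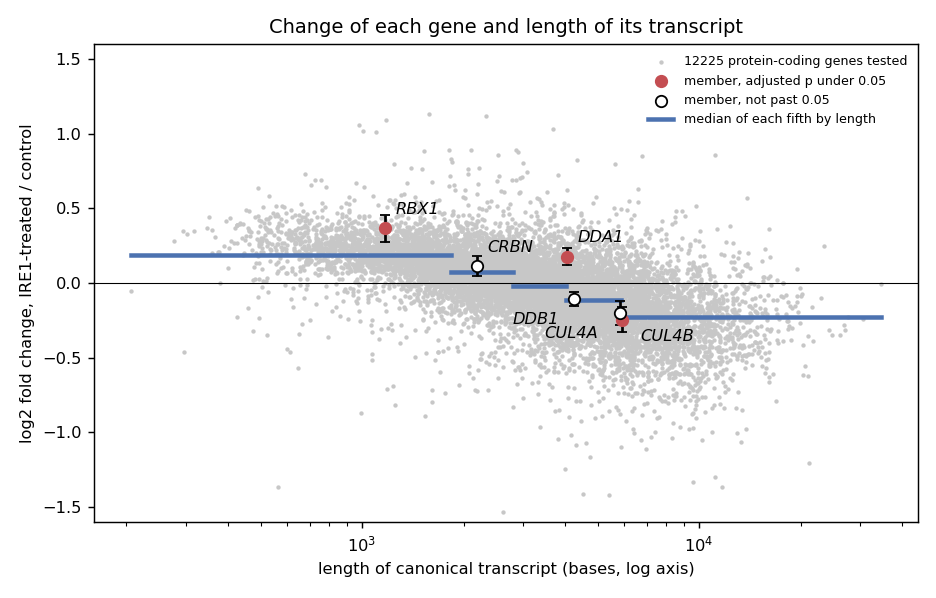
Log2 fold change (IRE1-treated minus control) against canonical transcript length in bases (log axis) for 12225 protein-coding genes in grey, with the medians of the quintiles of length as lines and the 6 subunits marked with bars of 1 SE (filled where the adjusted p was under 0.05). The medians descend from 0.18 to -0.23, RBX1 lies at the short end above 0, both cullins at the long end below 0, and DDA1 above the median of its quintile; 3 genes fall outside the axis.

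The enzymes that switch the ligase on and off were read from lists of related genes, whose counts of called genes stand beside the shares of all genes called higher (10.3%) and lower (12.4%). Cullins are activated when the ubiquitin-like protein NEDD8 is attached to them, and are reset by the COP9 signalosome, which removes it, and by CAND1, which exchanges receptors. Of 16 genes of the NEDD8 cycle 1 rose and none fell (median 0.059), which is 6.25% called beside 22.7% of all genes. Without treated replicate 1 there were 4 that rose, and without treated replicate 3 there were 2 that rose and 1 that fell. The one called with all 6 libraries was NEDD8 itself. It had 1293, 1176 and 1302 normalized counts in the controls and 1722, 1593 and 1404 after IRE1 (log2 fold change 0.32, adjusted p = 0.00431, edgeR). With the length and GC trend removed its value was 0.026 (adjusted p = 0.806, edgeR), while 2 others of the 16 rose. With upper quartile scaling 2 rose. Exons of NEDD8-MDP1 overlap NEDD8 on the same strand, and the annotation names 1 pseudogene of NEDD8. The E2 enzyme of that cycle for RBX1-bound cullins, UBE2M, had 0.11 (adjusted p = 0.193, edgeR), and CAND1 had -0.18 (adjusted p = 0.133, edgeR).

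Of the 10 COP9 signalosome subunits 4 rose and none fell (median 0.087), beside 10.3% of all genes called higher and 12.4% lower. Only 1 rose without control replicate 2, and 2 rose without control replicate 1, control replicate 3 or treated replicate 2. COPS6 rose by 0.28 on the log2 scale (adjusted p = 8.93e-04, edgeR), COPS9 by 0.27 (0.0133), COPS5, the catalytic subunit, by 0.19 (0.0123), and COPS3 by 0.18 (0.0139), with no overlap of the groups in any of these 4. COPS6 kept its call whichever library was left out, while COPS9, COPS5 and COPS3 did not. With scaling by library size alone 1 of the 10 passed, COPS6 (0.20, adjusted p = 0.00449, edgeR). With the length and GC trend removed 1 of the 10 passed, and it was none of these 4. COPS6 then had 0.12 (adjusted p = 0.0611, edgeR) and COPS9 -0.066.

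CUL4 and DDB1 serve many receptors besides cereblon, most of them WD40 proteins of the DCAF family. Of 25 such receptors 7 fell and 1 rose (median -0.11), beside 12.4% of all genes called lower and 10.3% higher. Only 3 fell without control replicate 1, control replicate 2 or treated replicate 2, and 4 without treated replicate 1 or with DESeq2. PHIP, a bromodomain protein of this family, had 1256, 1219 and 1055 normalized counts in the controls and 565, 733 and 822 after IRE1, a fall of 0.73 on the log2 scale (adjusted p = 2.47e-04, edgeR). Its relatives BRWD3 (-0.51, adjusted p = 0.00417, edgeR) and BRWD1 (-0.39, adjusted p = 0.0342, edgeR) and the receptor DCAF16 (-0.32, adjusted p = 0.00331, edgeR) also fell. BRWD1 lost its call without control replicate 1 or 2 or treated replicate 1 or 2 (adjusted p up to 0.178, edgeR). DDB2, the receptor for damaged DNA and named here after its value was seen, rose by 0.17 (adjusted p = 0.0287, edgeR) and lost its call without any 1 of the controls or treated replicate 2. With the trend removed 2 of the 25 fell and 2 rose: PHIP (-0.40, adjusted p = 0.00150, edgeR) and DCAF16 (-0.20, adjusted p = 0.0292, edgeR) still passed, while BRWD3 (-0.17, adjusted p = 0.359, edgeR) and BRWD1 (-0.014, adjusted p = 0.952, edgeR) did not.

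The mRNAs of the proteins that drug-bound cereblon degrades were lower or did not pass. Of 19 listed substrates 18 were tested (TP63, with 1 to 5 counts per library, was not); 6 fell, none rose, and the median was -0.20. That is 33.3% called beside 22.7% of all genes, of which 12.4% were lower. Leaving out 1 library at a time left 4 to 6 that fell. IKZF3 (Aiolos) had 667, 612 and 557 normalized counts in the controls and 326, 330 and 384 after IRE1, so that 56.6% of the control level was left on average (log2 fold change -0.82, SE 0.089, adjusted p = 4.61e-05, edgeR). IKZF1 (Ikaros) had 1756, 1711 and 1750 against 1273, 1414 and 1511 (log2 fold change -0.31, adjusted p = 0.00214, edgeR). The kinase CSNK1A1, a substrate with lenalidomide, fell by 0.23 (adjusted p = 0.0193, edgeR), ARID2, a subunit of a chromatin remodelling complex, by 0.47 (1.93e-04), ZBTB39 by 0.49 (0.00405) and ZFP91 by 0.33 (0.00837). CSNK1A1 lost its call without control replicate 2, control replicate 3 or treated replicate 2 (adjusted p up to 0.0865, edgeR), and ZFP91 without control replicate 2 (adjusted p = 0.0655, edgeR). GSPT1, the translation termination factor degraded with newer compounds, did not pass (0.03 on the log2 scale, adjusted p = 0.725, edgeR).

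With the length and GC trend removed 3 of the 18 substrates fell and 2 rose, and IKZF3 kept a log2 fold change of -0.56 (adjusted p = 3.16e-04, edgeR), while IKZF1 had -0.15 (adjusted p = 0.0718, edgeR), ZFP91 -0.16 (adjusted p = 0.141, edgeR) and CSNK1A1 -0.061 (adjusted p = 0.545, edgeR). IKZF1 was, like CUL4B, picked by the study as a candidate on these libraries, so that its value is not independent. Of the genes whose products fall after loss of IKZF1 and IKZF3, MYC had 7610, 7894 and 7670 normalized counts in the controls and 5248, 5561 and 5861 after IRE1 (log2 fold change -0.47, SE 0.050, adjusted p = 3.80e-05, edgeR). IRF4 had 27944, 27891 and 27172 against 25850, 25539 and 25949 (log2 fold change -0.10) and did not pass (adjusted p = 0.0948, edgeR). With the trend removed its sign turned (0.032). The study included IRF4 as a candidate for its known function. By quantitative PCR after the reaction, it reported decreases of IRF4 and IKZF1 in the 5′ region and across the predicted cleavage site. A count over the whole gene does not measure those parts separately. In H929 cells the study also reported lower IRF4 mRNA with some inducers of ER stress, and lower IRF4 and Ikaros protein with thapsigargin. MYC passed in all 14 alternatives. In myeloma cell lines the study reported synergy of lenalidomide or pomalidomide with inducers of ER stress. No drug was present in these reactions.

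**Figure D5:**
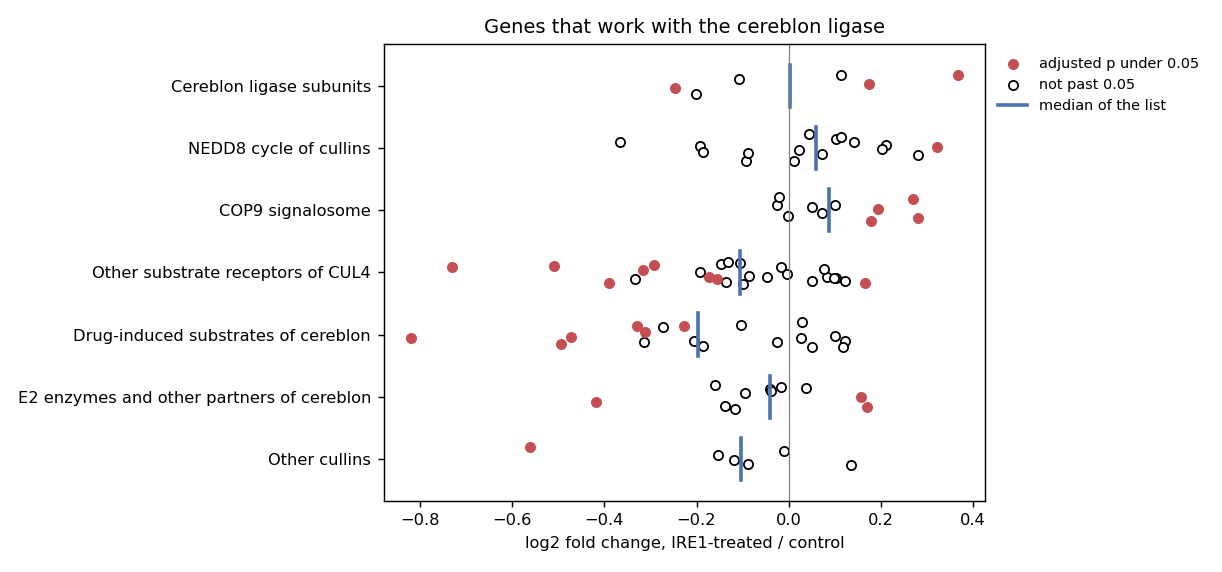
Log2 fold change (IRE1-treated minus control) of each tested gene on the lists around the ligase, one row per list, filled where the adjusted p was under 0.05, with a bar at the list's median. COP9 signalosome subunits are called only above 0 (4 of 10), and drug-induced substrates only below 0 (6 of 18), with IKZF3 lowest at -0.82.

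The genes whose pattern over the 6 libraries was most like that of a member were found by the root mean square difference of centred log2 normalized counts, among 10301 genes with a mean of at least 100. For CRBN they were P4HB, a protein disulfide isomerase (0.012), CCND2, a D-type cyclin (0.013), and SDHA, a subunit of succinate dehydrogenase (0.013), where the median over all genes was 0.11. For CUL4B they were USP34, a deubiquitinase (0.015), MBTPS2, a protease of the Golgi (0.016), and RNF19A, a RING-type ligase (0.020), with a median of 0.20. The log2 fold changes of the first trio were 0.11 to 0.13 and those of the second trio -0.25 to -0.23.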

How the data were processed

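The data are RNA-seq libraries of poly(A)-selected RNA (TruSeq Stranded kit) from H929 total RNA after a mock or an IRE1 reaction, 1 lane per sample. Per the labels and the submitters' processing notes, the authors used cutadapt 1.12 for trimming, STAR 2.5.3a for alignment to GRCh37 with Ensembl genes, and counted reads per gene with HTSeq 0.6.1p1; the strand setting is not given in the sources used here. The values analysed are the raw counts per gene that the authors deposited for each library. A deposited table of the authors' normalized values was not used. The HTSeq summary lines, 21.4 to 23.2% of all counts, stayed out of library sizes and tests.

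Counts were tested with edgeR 4.0.16 (R 4.3.3): its filter on low counts (14398 genes), TMM scaling and the quasi-likelihood test without covariates over all 6 libraries, with Benjamini-Hochberg adjustment over all genes tested and a threshold of 0.05. Normalized counts are counts at the mean effective library size. The fit was tested on simulated counts with planted changes. No library was a copy of another (lowest chi-square per gene between libraries 2.21). Lengths, exons and motif copies were taken from GENCODE release 44 (canonical transcript of each gene, GRCh37), and the copies were folded with ViennaRNA 2.7.2; that release named 55538 of the 57905 identifiers and all 117 symbols listed. The 14 alternatives were 6 fits without 1 library each, 2 other scalings (upper quartile, library size alone), 2 other filters (none, or 10 counts in every library), DESeq2 1.42.0, a block by replicate number, removal of a loess trend on length and GC content (span 0.5), and that removal with the block.

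The members, lists and genes named were chosen with earlier results of these data known. The rule named the 6 members, up to 4 called genes per list with the largest change among those averaging 100 or more normalized counts, IKZF1, IKZF3, CSNK1A1, IRF4 and MYC, and the 3 genes most like CRBN and CUL4B. UBE2M, CAND1, GSPT1 and DDB2 were added after their values were seen. Exon counts were not analysed here.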

Additional observations from a re-analysis of the deposited data

How the results depend on the processing

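Every subunit kept its direction in all 14 alternatives, and CRBN kept its side of the threshold in all of them. Of all genes, 3270 were called (1781 lower and 1489 higher). Scaling by library size alone called 3279 with another split, 2596 lower and 683 higher, and called 3 members lower and 1 higher: DDB1 passed at -0.18 and CUL4A at -0.28, and DDA1 no longer did (0.099). With the length and GC trend removed 1442 genes, 0 members lower and 1 higher were called, and CUL4B (-0.049) and RBX1 (0.17) lost their calls; with the replicate number as a block as well, the counts were 1282 genes, 0 members lower and 1 higher, with -0.054 for CUL4B and 0.17 for RBX1. DDA1 did not pass with no filter on low counts (0.16) or with the replicate block (0.18), each leaving 1 member called higher.

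Leaving out each library in turn gave 1630 to 4312 genes called, 0 to 1 members lower and 1 to 2 higher. Fewest were called without control replicate 2 (1630), control replicate 1 (1681) and treated replicate 2 (1982). The log2 fold change of CUL4B ranged from -0.36 to -0.17 and passed only without treated replicate 3; that of DDA1 ranged from 0.14 to 0.21 and passed in the same fit only; that of CUL4A ranged from -0.28 to -0.13 and passed only without treated replicate 1. The ratio of CUL4A to CUL4B was reversed without treated replicate 1 (-0.11) and reached 0.17 without treated replicate 3.

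Libraries with the same replicate number did not deviate together (correlations of -0.028, 0.0020 and -0.098), so the numbers were not taken to pair the samples; the block fit called 2613 genes, with 4 of the 25 receptors lower and none of the 11 partners higher. COPS9 reversed to -0.066 with the trend removed and to -0.070 with the block as well, and IRF4 to 0.032 in both.

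The per-length control levels moved with the length used. The merged length of all exons gave 21.2 for DDB1, 13.4 for DDA1, 6.59 for RBX1, 2.94 for CUL4A, 2.83 for CRBN and 1.11 for CUL4B. The longest transcript gave 66.9 for DDB1, 15.2 for DDA1, 10.9 for RBX1, 4.05 for CRBN, 3.94 for CUL4A and 1.56 for CUL4B. Library size alone gave 79.6 for DDB1, 10.7 for CRBN and 4.05 for CUL4A. The looser motif CNGCAG had 47 copies in the members, and a loop of exactly 7 bases left 1 partly looped copy. Requiring the whole motif in the loop, an alternative chosen after seeing the data, left 0. With 3 libraries per group a log2 fold change of 0.11, that of CRBN and in size that of DDB1, did not pass. The cause of each lost call was not tested.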

Other observations

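The other cullins, scaffolds of related ligases with other receptors, and the remaining partners of cereblon give the surroundings of these values. CUL5, the scaffold of the SOCS-box ligases, had 825, 879 and 811 normalized counts in the controls and 564, 511 and 626 after IRE1. It fell by 0.56 on the log2 scale (adjusted p = 2.04e-04, edgeR's quasi-likelihood test) and passed in all 14 alternatives. CUL5 was the only 1 of 6 other cullins called (16.7%, beside 22.7% of all genes). Without treated replicate 3, or with scaling by library size alone, 2 were called lower. With the length and GC trend removed 1 was called lower and 1 higher. The study had picked CUL5 and CUL9 as candidates from the exon usage in these libraries, and CUL9 was at -0.15 on the same scale (adjusted p = 0.133, edgeR). For both, the study reported a decrease of the 5′ region by quantitative PCR. A count over the whole gene does not measure exons or the 5′ region separately. Of 11 E2 enzymes and other partners of cereblon 1 fell and 2 rose (27.3% called, beside 22.7% of all genes). The number that rose was 0 without control replicate 1, control replicate 2 or treated replicate 2, and 1 without control replicate 3; without treated replicate 3, 2 fell. PRKAA1, a catalytic subunit of the AMP-activated kinase that cereblon is known to bind, fell by 0.42 (adjusted p = 0.00478, edgeR) and passed in all 14 alternatives. CDC34, an E2 enzyme, rose by 0.17 (adjusted p = 0.0224, edgeR), and BSG, a membrane glycoprotein that cereblon helps to mature, by 0.16 (adjusted p = 0.0210, edgeR). Neither CDC34 nor BSG passed with the length and GC trend removed, though 1 other of the 11 was then called higher.

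Among the 11 markers of plasma cells and of H929, MZB1 (0.31) and TNFRSF17 (0.25) rose and PRDM1 (-0.25) and FGFR3 (-0.24) fell. The adjusted p-values were 0.00401, 0.00134, 0.00193 and 0.0122 (edgeR). That is 36.4% called, beside 22.7% of all genes. The study included PRDM1 as a candidate for its known function and reported its decrease by quantitative PCR. FGFR3 lost its call without control replicate 3 (adjusted p = 0.0641, edgeR). With the length and GC trend removed FGFR3 still passed (-0.18, adjusted p = 0.0410, edgeR). MZB1 (0.086, adjusted p = 0.257), TNFRSF17 (0.0050, adjusted p = 0.955) and PRDM1 (-0.12, adjusted p = 0.0675) then did not (edgeR). The transcripts of the pair that rose have 925 and 891 bases, and those of the pair that fell 5148 and 4301.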
